A study of Mus musculus with 11 samples.

Results

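Mettl3 knockout (KO) embryoid bodies (EBs) were compared with wild-type (WT) EBs, using the RNA-seq libraries A and B of each genotype. The comparison covers the 16056 genes, of 39179 in the deposited table, whose mean normalized count over these 4 libraries was 10 or more. It uses 4 of the 10 libraries in the table, and the ESC columns did not enter its fit. The study profiled embryonic stem cells (ESCs) and EBs of the same genotypes to ask what loss of m6A on mRNA does when pluripotent cells are made to differentiate. All cells are labelled C57BL/6, and each genotype is described only as a cell line, WT or Mettl3-KO. How the gene was disrupted, how many clones each line represents and the sex of the lines are not given in the sources used here. Both genotypes were kept as ESCs in serum-free N2B27 medium with LIF, the GSK3 inhibitor CHIR99021 and the MEK inhibitor PD0325901. They were then turned into EBs by culture in suspension, on non-adherent plates with 15% serum, and kept there for 8 to 21 days. The day on which each EB library was taken is not given in the sources used here, so a difference in age between libraries cannot be told apart from genotype. The design text calls the libraries biological replicates but names no separate cultures or clones, so the p-values measure the spread between these libraries only. ESC libraries A and B of each genotype serve below for reference levels and for the test of whether the KO effect differs between EBs and ESCs, and the fibroblast sample of the series is not analysed here.

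METTL3 is the catalytic subunit of the nuclear complex that writes N6-methyladenosine (m6A) on mRNA as it is transcribed, and the mark is known above all for shortening the life of the transcripts that carry it. EBs are aggregates of ESCs that, once LIF and the inhibitors are withdrawn, form an outer layer of primitive endoderm around a core of epiblast-like cells. Primitive endoderm gives rise to parietal endoderm, which lays down a thick basement membrane, and to visceral endoderm, an absorptive epithelium that takes up proteins and secretes carriers of lipids and vitamins. The inner cells normally leave pluripotency and form the germ layers.

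Markers bore out the label in part. Genes of the endoderm that surrounds an EB were far more abundant in WT EBs than in WT ESCs, as detailed below, whereas pluripotency transcripts persisted in both genotypes. Pou5f1, the pluripotency factor also called Oct4, read 9280.0 and 8416 normalized counts in WT ESCs, 4431 and 4035 in WT EBs and 5876 and 5160.5 in KO EBs. Nanog, another core factor, read 3279 and 3834 in WT ESCs, 1201 and 1432 in WT EBs and 1494 and 1656 in KO EBs. In both genotypes the EB values were below those of WT ESCs, but neither gene fell under 1000. Several defining markers of the germ layers were near 0 in all 4 EB libraries, and others were not. T (Brachyury, primitive streak), Mixl1 and Mesp1 (mesendoderm and mesoderm), Pax6 (neural), Tnnt2 (heart muscle) and Hba-x (primitive red cells) read 8.43 or less, and Hbb-y, an embryonic globin, had no read. Eomes, a T-box factor of mesendoderm, read 126 and 107 in the WT and 167 and 145 in the KO libraries, and the neural genes Sox1 and Tubb3 read 49.0 and 27.5 in the WT and 120.1 and 87.5 in the KO libraries and 316 and 263 in the WT and 602 and 469 in the KO libraries. Myh6 (heart muscle) and Gata1 (blood) read 30.6 and 18.9 in the WT and 24.7 and 30.6 in the KO libraries and 20.7 and 16.4 in the WT and 14.8 and 13.6 in the KO libraries.

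KO and WT EBs differed across much of the transcriptome. At an adjusted p under 0.05, from a limma fit on log2(normalized count + 1), 7904 genes passed (49.2% of those tested), of which 3661 were higher in KO EBs (22.8%) and 4243 lower (26.4%). A difference of at least 1 on the log2 scale was found for 1401 higher genes (8.73%) and 1484 lower genes (9.24%). Large losses outnumbered large gains. At 3 or more on the log2 scale 62 genes were higher and 263 lower, at 5 or more 8 and 86, and at 7 or more 0 and 12. Of the abundant genes, taken as those that averaged at least 1000 where they were higher, 41 fell by 3 or more and 5 rose by as much. Genes lower by 1 or more took up 12.9% and 13.3% of all gene reads in the WT libraries and 3.68% and 3.78% in the KO libraries. Genes higher by 1 or more went the other way, from 2.99% and 3.05% to 8.12% and 8.42%. For 15 of the lower genes neither KO library held a read, whereas no higher gene was without a read in WT EBs. The WT and KO libraries did not overlap for 12031 genes (74.9%). In a fit that also held ESC libraries A and B, 8289 genes passed, 3840 higher and 4449 lower. With the ESC replicate C libraries added as well, 340 genes passed, 83 higher and 257 lower.

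**Figure D1:**
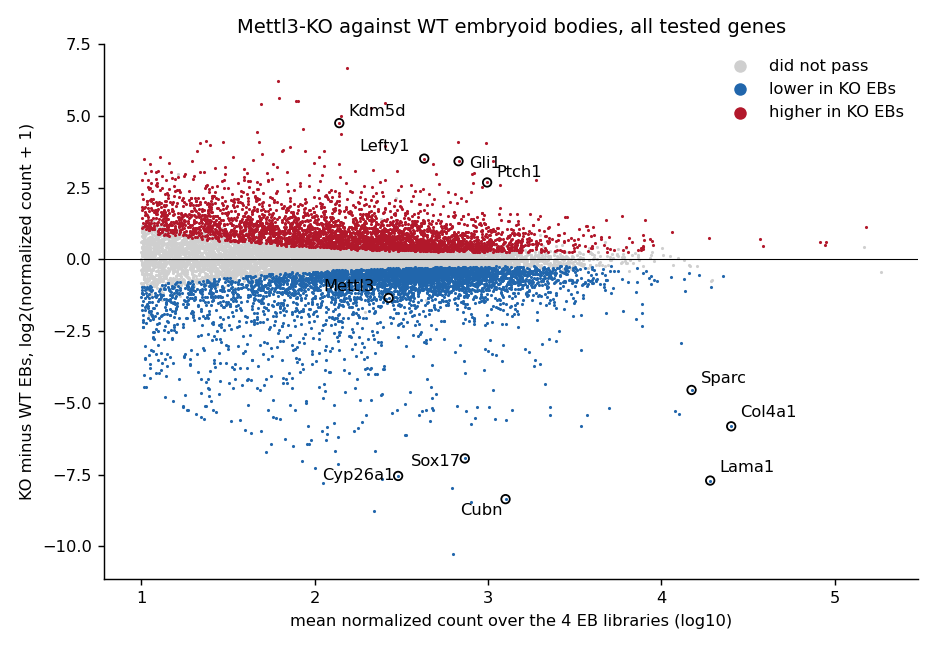
Difference between KO and WT EBs for each of the 16056 tested genes (log2 scale, vertical axis) against its mean normalized count over the 4 libraries (log10 scale, horizontal axis), with genes at an adjusted p under 0.05 coloured by direction. The lower genes reach further from 0 and include abundant transcripts such as Lama1 and Col4a1.

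The 4 libraries were alike in depth but not in every technical measure. Gene reads numbered 10653107 and 9124838 in WT and 10647579 and 8523027 in KO EBs. Libraries A and B of a genotype correlated across genes with r of 0.989 (WT) and 0.988 (KO), and differed by more than sampling noise, with a chi-square of 9.53 and 8.95 per gene. A WT and a KO library correlated with r of 0.884 to 0.892. Alignments that were not unique made up 36.9% of records in both WT libraries and 46.1% and 44.5% in the KO libraries. Genes with at least 1 read numbered 25673 and 25852 in WT and 23525 and 23328 in KO EBs. Rn7sk, a small nuclear RNA without a poly(A) tail that was chosen after its values were seen, was among the most abundant RNAs of libraries labelled as poly(A) RNA and read 92183 and 96834 in the WT and 196340 and 220410 in the KO libraries, a rise of 1.14 on the log2 scale. Of 109 tested small nucleolar RNAs, which guide ribosomal RNA modification, 52 rose (47.7%) and 3 fell. The part of these technical measures in the differences below was not tested.

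Mettl3 itself (ENSMUSG00000022160, chr14:52294841-52305128, minus strand, GRCm38) read 399 and 368 in the WT and 154 and 147 in the KO libraries. It was lower in both KO libraries than in both WT libraries (log2 difference -1.34 ± 0.11 SE, adjusted p = 0.000124), a fall to 39.2% of the WT mean, so reads over the gene remained in the KO line. Tox4 overlaps 18.4% of its exonic bases on the opposite strand, and a kit that does not mark strand cannot assign reads there. Across 23 genes that write, bind or remove m6A, all of them tested, 8 rose, 7 fell and 8 did not pass (median 0.21, against -0.02 for all genes tested). Wtap, the adaptor that holds the writer complex in nuclear speckles, read 429 and 479 in the WT and 1229 and 1324 in the KO libraries. The 2 KO values were both above 1200 and the 2 WT values both under 500 (log2 difference 1.49 ± 0.10 SE, adjusted p = 5.18e-05). Rbm15, which directs the complex to its targets, rose by 0.68, the nuclear reader Ythdc1 by 1.04 and the decay-promoting reader Ythdf2 by 0.99. Wtap, Rbm15, Ythdc1 and Ythdf2 were also higher in KO ESCs, by 1.49, 1.22, 1.19 and 1.34. The test of whether the KO effect differs between EBs and ESCs did not pass for Wtap and Ythdc1. It passed for Rbm15 and Ythdf2, which rose less in EBs. Igf2bp1 and Igf2bp2, RNA-binding proteins reported to stabilise marked mRNA, fell by 1.06 and 0.80. Alkbh5, an m6A demethylase, fell by 0.90. In ESCs the effects of Igf2bp1, Igf2bp2 and Alkbh5 were -0.24, -0.22 and -0.45. Hnrnpa2b1, the most abundant of those that did not pass, is a nuclear RNA-binding protein (log2 difference -0.24). Igf2bp1 and Alkbh5 lie on chromosome 11, where the median gene was lower in KO EBs, as given at the end.

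Most transcription factors and receptors of primitive endoderm were sharply lower in KO EBs. Of 15 tested regulators 11 fell, none rose and 4 did not pass (median -3.95), while Foxa1, Lhx1 and Cer1 were below the level needed for testing. Fewer endoderm cells and less of these RNAs per cell cannot be told apart in bulk samples. Gata6, a GATA factor that starts the primitive endoderm program, read 627 and 545 in the WT and 13.4 and 15.3 in the KO libraries (log2 difference -5.26 ± 0.16 SE, adjusted p = 2.06e-06). Gata4, its partner, read 999.9 and 832 in the WT and 38.8 and 24.6 in the KO libraries (log2 difference -4.84 ± 0.22 SE, adjusted p = 1.05e-05). Sox17, an SRY-box factor that maintains the endoderm fate, read 1695 and 1223 in the WT and 11.3 and 10.2 in the KO libraries (log2 difference -6.94 ± 0.18 SE, adjusted p = 1.77e-06). In each case both KO values were under 5% of the lower WT value. Sox7, the related factor of parietal endoderm, read 98.1 and 95.6 in the WT and 1.41 and 0 in the KO libraries, and its few KO reads give a WT to KO ratio with a 95% interval of 34.4 to 1043, which covers counting error only. Foxa2, a forkhead factor of endoderm, read 409.9 and 288 in the WT and 2.12 and 10.2 in the KO libraries (log2 difference -5.87 ± 0.54 SE, adjusted p = 0.000195). Hnf4a, which drives the liver-like genes of visceral endoderm, fell by 2.65.

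The receptors and adaptors of the layer fell with its factors. Pdgfra, the PDGF receptor that marks primitive endoderm and supports its survival, read 1309 and 1455 in the WT and 77.7 and 101 in the KO libraries (log2 difference -3.95 ± 0.14 SE, adjusted p = 4.75e-06). Dab2, an endocytic adaptor needed to order the layer as an epithelium, read 889 and 994 in the WT and 24.0 and 22.9 in the KO libraries (log2 difference -5.27 ± 0.13 SE, adjusted p = 1.42e-06). Foxq1 fell by 3.80, and Otx2, a homeodomain factor of visceral endoderm and of primed epiblast, read 235 and 245 in the WT and 33.9 and 30.6 in the KO libraries (log2 difference -2.86 ± 0.15 SE, adjusted p = 1.87e-05). Sall4, Eomes, Gsc and Hhex, which also act outside this layer, did not pass. Sall4, shared with pluripotent cells, read 2258 and 2042 in the WT and 2386 and 2199.9 in the KO libraries. Its KO and WT libraries had similar levels, unlike those of the factors above (log2 difference 0.09, adjusted p = 0.445).

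Basement membrane genes of parietal endoderm were among the most abundant transcripts lost. Of 19 tested genes 17 fell, 1 rose and 1 did not pass (median -2.88). Col4a1 and Col4a2 encode the chains of the type IV collagen network and are transcribed in opposite directions from a shared control region. Their RefSeq promoter windows (GRCm38.p6, 250 bases before to 50 after the start site) are shown because the genes fell together, each on its own strand, with the bases that both windows hold in capitals. Col4a1 lies on the minus strand at chr8:11312777-11313076 and Col4a2 on the plus strand at chr8:11312555-11312854. The start sites are 21 bases apart and the windows share 78 bases.
Col4a1: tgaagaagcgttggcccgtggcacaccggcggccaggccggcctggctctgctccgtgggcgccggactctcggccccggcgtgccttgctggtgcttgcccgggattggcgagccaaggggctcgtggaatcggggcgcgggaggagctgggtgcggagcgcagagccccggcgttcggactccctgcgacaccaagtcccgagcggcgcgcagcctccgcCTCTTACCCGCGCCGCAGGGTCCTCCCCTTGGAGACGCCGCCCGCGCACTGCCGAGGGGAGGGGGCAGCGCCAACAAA
Col4a2: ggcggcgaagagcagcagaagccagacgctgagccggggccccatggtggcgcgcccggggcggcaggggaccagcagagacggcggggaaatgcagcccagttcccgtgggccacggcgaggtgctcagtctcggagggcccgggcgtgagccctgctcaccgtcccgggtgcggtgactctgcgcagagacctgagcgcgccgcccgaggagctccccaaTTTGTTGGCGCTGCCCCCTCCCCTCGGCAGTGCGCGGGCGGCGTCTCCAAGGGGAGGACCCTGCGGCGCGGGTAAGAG
Col4a1 read 49823 and 49659 in the WT and 864 and 895 in the KO libraries (log2 difference -5.82 ± 0.08 SE, adjusted p = 1.54e-07). Col4a2 read 23895 and 22925 in the WT and 585 and 608 in the KO libraries (log2 difference -5.29 ± 0.08 SE, adjusted p = 1.86e-07). The ratio of Col4a1 to Col4a2 per kb of exon was 1.88 in WT and 1.31 in KO EBs, a shift of the balance towards Col4a2 that was not tested.

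The laminin network showed unequal losses among its chains. Lama1, the alpha chain of the first laminin made by the embryo (ENSMUSG00000032796, chr17:67697259-67822647), read 37701 and 38512 in the WT and 176 and 186 in the KO libraries (log2 difference -7.71 ± 0.08 SE, adjusted p = 5.61e-08). Lamb1, a beta chain, read 24609 and 24939.7 in the WT and 591 and 588 in the KO libraries (log2 difference -5.39 ± 0.08 SE, adjusted p = 1.71e-07). Lamc1, the gamma chain used by most laminins, read 23144 and 22521 in the WT and 3029.8 and 3054 in the KO libraries (log2 difference -2.91 ± 0.08 SE, adjusted p = 1.85e-06). No KO value came near a WT value, and the alpha chain lost the most. Per kb of exon, mean normalized counts of Lama1, Lamb1 and Lamc1 were 3936, 2498 and 2760.2 in WT and 18.7, 59.4 and 368 in KO EBs. The chain with the lowest level per kb in KO EBs was therefore Lama1, which in WT EBs stood above Lamc1.

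Among other matrix genes most fell and 1 was higher. Sparc, a secreted collagen-binding protein, read 29366 and 27978 in the WT and 1247 and 1194 in the KO libraries (log2 difference -4.55 ± 0.08 SE, adjusted p = 3.70e-07). Serpinh1, the collagen chaperone HSP47, read 13535 and 12385 in the WT and 2701 and 2519 in the KO libraries (log2 difference -2.31 ± 0.09 SE, adjusted p = 5.62e-06). Both had no overlap between genotypes. The collagen-modifying hydroxylases P4ha1, P4ha2 and Plod2 fell by 2.85, 3.55 and 2.95, and the plasminogen activator Plat by 3.80. Nid1 and Nid2, the nidogens that link laminin to collagen IV, fell by only 0.61 and 0.79, with Nid1 at 2831 and 2795 in the WT and 1889.9 and 1786 in the KO libraries. Hspg2, the heparan sulphate proteoglycan perlecan, was higher in KO EBs, with 7037 and 5953 in the WT and 8801 and 7624 in the KO libraries (log2 difference 0.34 ± 0.12 SE, adjusted p = 0.0448), and its test did not pass without WT library B (log2 difference 0.22, adjusted p = 0.27), without KO library A (0.24, adjusted p = 0.233) and, these included, in 5 of 16 alternative analyses. Fbn1, a microfibril protein of other matrices, did not pass. Summed over the list, these genes took up 2.84% and 2.90% of gene reads in WT EBs and 0.342% and 0.336% in KO EBs, next to 0.371% and 0.374% in WT ESCs.

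Genes of visceral endoderm were lost as well. Of 19 tested 17 fell, none rose and 2 did not pass (median -3.73), while Trf, Alb, Fga, Fgg and Slc2a2 were below the level needed for testing. Afp encodes alpha-fetoprotein, the main serum protein of the yolk sac and fetal liver. Its RefSeq promoter window (GRCm38.p6, plus strand, chr5:90490464-90490763) is shown because this gene lost all its reads, with capitals for 2 short motifs. The first is GTTAAT, the core of sites bound by HNF1 factors. The second, the TATA box, is searched as TATAAA.
Afp: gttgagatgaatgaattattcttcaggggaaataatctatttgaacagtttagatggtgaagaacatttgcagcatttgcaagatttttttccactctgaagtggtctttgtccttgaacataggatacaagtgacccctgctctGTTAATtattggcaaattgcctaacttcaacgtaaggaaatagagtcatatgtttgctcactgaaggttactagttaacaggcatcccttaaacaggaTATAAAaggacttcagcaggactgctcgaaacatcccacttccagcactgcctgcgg
Over all 11111 tested genes with a window, 3.89% held GTTAAT on either strand and 4.31% held TATAAA on the strand of the gene. Of the 16 visceral endoderm genes with a window, 3 held the first and 4 the second, and none held the GATA factor motif, searched as AGATAA and present on either strand in 5.95% of all windows. These matches describe letters in a window and are no evidence of binding.

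Afp read 405 and 473 in the WT and 0 and 0 in the KO libraries, at least 379.5-fold lower in KO EBs when 3 reads over the group are taken as the floor. Ttr, the thyroxine carrier transthyretin, read 152 and 146 in the WT and 0 and 1.70 in the KO libraries, a WT to KO ratio with a 95% counting interval of 53.2 to 1603. Apoa4 and Fgb, which encode an apolipoprotein and a fibrinogen chain, had no KO read. Their levels were lower by factors of at least 39.8 and 31.9. None of these carriers had more than a few reads in a KO library. The uptake receptors had been far more abundant. Cubn, the receptor cubilin, read 2335 and 2702 in the WT and 4.24 and 10.2 in the KO libraries (log2 difference -8.36 ± 0.32 SE, adjusted p = 5.28e-06), and Amn, the partner that carries cubilin to the membrane, read 522 and 416 in the WT and 37.4 and 31.4 in the KO libraries (log2 difference -3.73 ± 0.17 SE, adjusted p = 1.05e-05). Lrp2, the receptor megalin, read 5906 and 6409 in the WT and 665 and 705 in the KO libraries (log2 difference -3.17 ± 0.09 SE, adjusted p = 1.88e-06). Cubilin was thus almost absent from KO EBs, whereas megalin stayed above 600.

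Most lipid carriers were lower as well. Apoa1 read 146 and 121 in the WT and 8.48 and 6.79 in the KO libraries (log2 difference -3.97 ± 0.23 SE, adjusted p = 2.73e-05). Apob, the structural protein of secreted lipoproteins, fell by 3.42, and Mttp, which loads it with lipid, by 3.82. Apoc2, Rbp4 (the plasma retinol carrier) and Apom fell by 3.26, 2.85 and 2.12. Cited1, a transcriptional coregulator, and the tight junction gene Cldn6 fell by 6.67 and 3.22. Soat2, which esterifies cholesterol, fell by 0.97. Apoe, also made by ESCs, read 13164 and 11276 in the WT and 13279.7 and 11914 in the KO libraries and did not pass (log2 difference 0.05), and Apoa2 did not pass either. Some genes of this list also differed between genotypes in ESCs, where the median KO effect was -0.39. The ESC effects of Apoc2, Rbp4, Apom, Apob and Mttp had sizes of 3.12, 3.33, 1.85, 2.54 and 1.76, against 0.03 for Ttr. Lrp2 and Cldn6 differed there by -1.39 and -1.45. The KO effect differed between EBs and ESCs for 11 of 18 genes.

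**Figure D2:**
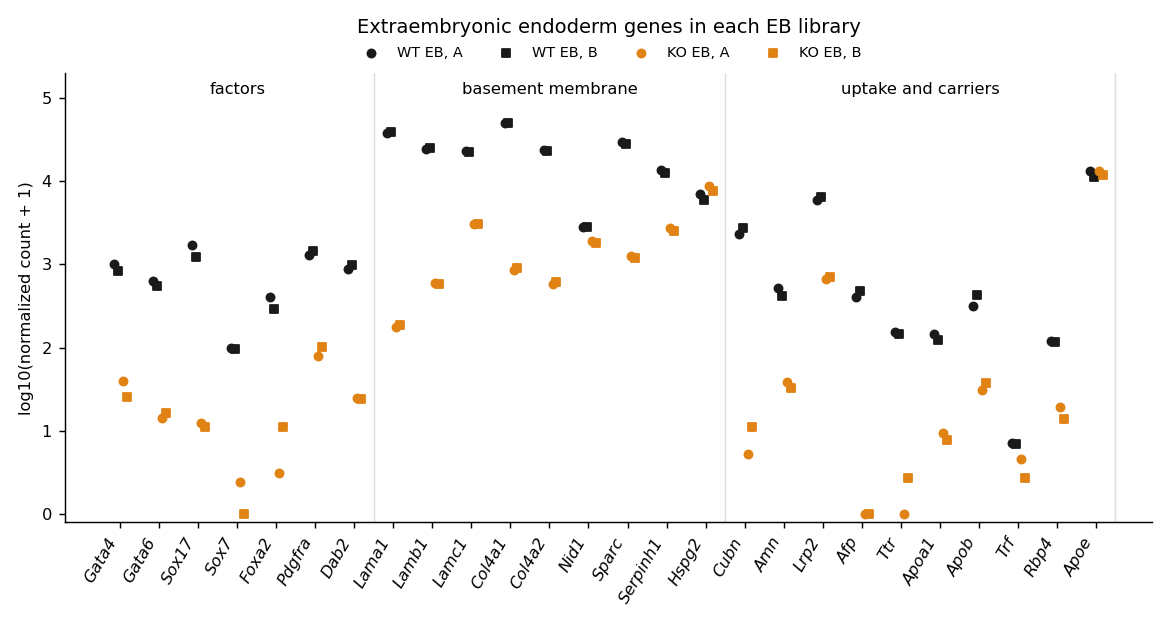
Level of extraembryonic endoderm genes in each EB library as log10(normalized count + 1), with WT in black, KO in orange, circles for A and squares for B. KO libraries lie below WT libraries for most genes, Afp is at 0 in both KO libraries, and Hspg2 and Apoe do not follow the others.

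WT ESCs gave a reference for what remained in KO EBs. Relative to WT ESCs, the median tested gene of the primitive endoderm, basement membrane and visceral endoderm lists was higher in WT EBs by 4.66, 2.90 and 4.47 on the log2 scale. In KO EBs the same medians were 0.18, -0.17 and 0.02. KO EBs were within 2-fold of WT ESCs for 8 of 15, 11 of 19 and 12 of 19 genes of these lists. They were above 2 times the ESC level for 5, 3 and 4 genes, against 11, 15 and 15 genes in WT EBs. These medians describe lists chosen for their endoderm role and carry no test.

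Further transcripts lost from KO EBs included several of the most affected in the table. Aqp8, a water channel, read 1245 and 1253 in the WT and 0 and 0 in the KO libraries, at least 1080.0-fold lower. Srgn, the core protein of the proteoglycan serglycin, read 1587 and 1611 in the WT and 4.94 and 2.55 in the KO libraries (log2 difference -8.44 ± 0.25 SE, adjusted p = 1.89e-06). Hkdc1, a hexokinase-like enzyme, read 1258 and 1217 in the WT and 2.12 and 6.79 in the KO libraries (log2 difference -7.97 ± 0.38 SE, adjusted p = 1.32e-05). All 3 were above 1200 in both WT libraries and under 10 in both KO libraries. Adamts9, a matrix protease, fell by 5.80, and Tfpi, an inhibitor of the coagulation cascade, by 5.59. Rhox5, a homeobox gene of the X chromosome, fell by 5.58, and its KO effect in ESCs was -4.69. S100g, the calcium-binding protein calbindin-D9k, had no KO read and was at least 193-fold lower, and Nxf7 read 449.7 and 528 in the WT and 2.12 and 0.849 in the KO libraries.

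Keratins and junction genes of simple epithelium fell in part. Of 20 tested genes of epithelial junctions and keratins 12 fell, 2 rose and 6 did not pass (median -0.66). Krt8, the type II keratin of simple epithelia, read 3989 and 4132 in the WT and 203 and 196 in the KO libraries (log2 difference -4.34 ± 0.09 SE, adjusted p = 4.17e-07), and its type I partner Krt18 fell by 3.50. Epcam, an adhesion molecule of epithelia and ESCs, fell by 1.37. Cdh1, which encodes E-cadherin, went the other way and read 1274 and 1306 in the WT and 2379 and 2389 in the KO libraries (log2 difference 0.89 ± 0.08 SE, adjusted p = 0.000197), as did the polarity gene Crb3 (log2 difference 1.01). E-cadherin and these keratins therefore moved in opposite directions. Among 10 tested genes of trophectoderm and placenta, 7 fell and Ascl2, a placental bHLH factor, rose (log2 difference 1.04). Tfap2c, an AP-2 factor of trophoblast and germ cells, fell by 0.66, and Krt8, Krt18 and the imprinted gene Peg10 are counted in that list too. In the mesenchymal list 4 of 15 tested genes were higher (26.7%) and 4 lower (26.7%), near the 22.8% and 26.4% of all genes. Tgfbi, a secreted adhesion protein induced by TGF-beta, rose by 1.87, and S100a6, a calcium-binding protein, fell by 0.85.

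Fibroblast and interstitial matrix genes were examined because EB cultures can hold stromal cells. Of 22 tested genes 1 rose, 11 fell and 10 did not pass (median -0.33). The list summed to 17456 and 17346 normalized counts in WT and 14892 and 15202 in KO EBs. Vim, the intermediate filament protein vimentin, fell by 1.35, and Col3a1, a fibrillar collagen, by 0.98. Dcn, the small proteoglycan decorin, rose by 1.25. Fn1, fibronectin, read 6938 and 6973 in the WT and 7545 and 7828 in the KO libraries and did not pass. In WT ESCs Col3a1 read 3115 and 3171 and Fn1 read 9322 and 9081, above their EB levels in both genotypes. Vim read 858 and 840 there, between its WT and KO EB levels. These genes were therefore not particular to EB cultures. The part of stromal cells in the other results was not tested.

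Naive pluripotency genes were mostly higher in KO EBs. Of 20 tested 13 rose, 2 fell and 5 did not pass (median 0.49), against 22.8% of all genes higher. Esrrb, an orphan nuclear receptor that sustains self-renewal, read 2194 and 2151 in the WT and 4586 and 4399 in the KO libraries (log2 difference 1.05 ± 0.08 SE, adjusted p = 9.77e-05). Klf2, a Krüppel-like factor kept active by MEK inhibition, read 670.4 and 402 in the WT and 2071 and 1533 in the KO libraries (log2 difference 1.78 ± 0.24 SE, adjusted p = 0.00107). Zfp42, the ESC marker Rex1, read 674 and 749 in the WT and 1112 and 1189.5 in the KO libraries (log2 difference 0.69 ± 0.10 SE, adjusted p = 0.00117). For each of the 3 genes both KO values exceeded both WT values, by less than 4-fold on average. Gbx2, Nr0b1, Fgf4 and Klf4 rose by 1.14, 0.86, 0.84 and 0.72. Prdm14, which represses differentiation genes, Tfcp2l1, Nr5a2 and Tdh rose too. Nanog read 1201 and 1432 in the WT and 1494 and 1656 in the KO libraries and did not pass (log2 difference 0.26, adjusted p = 0.0928), nor did Klf5, Dppa3, Dppa5a or Sox21. Stat3, the effector of LIF, fell by 1.04, and Fbxo15 by 0.69. Part of this pattern was already seen in ESCs, where the median KO effect of the list was 0.26. The KO effect differed between EBs and ESCs for 8 of the 20 genes. Esrrb and Tfcp2l1 were higher in KO ESCs by 1.17 and 0.58, and their differences of effects did not pass. Fgf4 was higher there by 0.16, and its difference passed (adjusted p = 0.00122 in limma).

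The general pluripotency genes were less uniform. Of 14 tested 5 rose, 3 fell and 6 did not pass (median 0.24). Sox2, the SRY-box factor shared by pluripotent and neural cells, read 6331 and 4918 in the WT and 11458 and 8805 in the KO libraries (log2 difference 0.85 ± 0.16 SE, adjusted p = 0.0045). Pou5f1 rose by 0.38 (adjusted p = 0.0175), a small difference with no overlap between genotypes, which did not pass without WT library B (log2 difference 0.31, adjusted p = 0.108) or KO library A (0.29, adjusted p = 0.128). Dppa4, a chromatin protein of pluripotent cells, rose by 0.45, and Lin28b by 0.76. Lin28a, its paralog and a blocker of let-7 maturation, read 1063 and 1023 in the WT and 434 and 449 in the KO libraries (log2 difference -1.24 ± 0.09 SE, adjusted p = 6.90e-05). The paralogs thus went in opposite directions in EBs. In ESCs Lin28a read 307 and 303 in WT and 16.9 and 12.7 in KO, a larger fall of 4.29. Its difference of effects, EBs minus ESCs, was 3.05 (adjusted p = 1.02e-05 in limma). The ESC effect of Lin28b had a size of 0.34.

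Genes of the primed epiblast went in both directions. Of 12 tested 6 rose and 4 fell (median 0.46). Of those that fell, Foxa2, Otx2 and Cldn6 are counted in the endoderm lists above too. Those that rose included Nodal, Lefty1 and Lefty2, given with their pathway below, and Zic2, which rose by 2.08. Dnmt3b, the de novo DNA methyltransferase that marks the exit from the naive state, read 438 and 408 in WT ESCs and 950.1 and 968 in the WT and 448 and 460.2 in the KO libraries (log2 difference -1.08 ± 0.09 SE, adjusted p = 0.000118). Its KO EB level was near that of WT ESCs, and its WT EB level above both. Fgf5, the classic marker of primed epiblast, was low in all EB libraries (10.7 and 9.47 in WT and 2.12 and 1.70 in KO) and below the level needed for testing. Dnmt3a did not pass.

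Germ layer genes that could be measured showed no single direction. In early mesoderm, 11 of 20 listed genes were tested, of which 3 rose (27.3%) and 3 fell (27.3%), Pdgfra of the endoderm list among the latter. These shares were near the 22.8% and 26.4% of all genes. Tcf15, a bHLH factor of early mesoderm, rose by 1.24 but did not pass with the 8 EB and ESC libraries A and B in the fit (adjusted p = 0.0523), while Snai1, a repressor of E-cadherin, fell by 1.71. Of 15 tested cardiac genes 4 rose and 9 fell (median -1.86), and Gata4 of the endoderm list is among those that fell. Myh7, a myosin heavy chain of heart and slow muscle, read 302 and 244 in the WT and 2.83 and 0 in the KO libraries, and Myl3, its light chain, fell by 2.78. Ttn, the giant sarcomere protein titin, read 238 and 308 in the WT and 1435 and 1694 in the KO libraries (log2 difference 2.52 ± 0.15 SE, adjusted p = 2.81e-05), and Nkx2-5, the cardiac homeodomain factor, rose by 2.08. Myh7 and Ttn therefore differed in opposite directions. Ttn was also expressed by ESCs, with 2296 and 2604 in WT ESCs, above its EB levels in both genotypes. Among 13 tested genes of blood and endothelium 6 fell and none rose, with Flt1, a VEGF receptor, lower by 2.14 and Esam, an endothelial adhesion molecule, by 3.19. Pecam1, also expressed by ESCs, did not pass (log2 difference -0.06).

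Of 15 tested neural genes 6 rose (40%, against 22.8% of all genes) and 4 fell (26.7%, against 26.4%), with a median of 0.52. Tubb3, a neuronal tubulin, rose by 0.88, Olig2, a bHLH factor of the ventral spinal cord, by 1.06, and Sox1, an early neuroectoderm factor, by 1.45. Olig2 read 337 and 307 in WT ESCs, above its EB levels in both genotypes, while Tubb3 and Sox1 were higher in both KO EB libraries than in WT ESCs. Nes and Nefl, which encode intermediate filament proteins, fell by 0.83 and 0.82. Of 38 Hox genes, which pattern the body axis, 27 were below the level needed for testing. Among the 11 tested, 6 rose (54.5%, against 22.8% of all genes) and 2 fell (18.2%, against 26.4%), with a median of 0.91. Levels were low, and the 38 genes together summed to 298 and 300 normalized counts in WT and 514 and 494 in KO EBs. Hoxb9 and Hoxc13 rose most, by 2.30 and 2.07, and their ESC effects had sizes of 1.74 and 0.44. In the 25 germ cell and meiosis genes, 8 rose and 11 fell (median -0.04). Stag3, a meiotic cohesin, rose by 0.79 and Tex11, a meiotic crossover gene, by 0.95, while Dnmt3l, a cofactor of de novo methylation, fell by 0.73 and Dazl, a translational regulator of germ cells, by 2.27.

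Nodal and its feedback inhibitors rose, while some BMP ligands and antagonists fell. Of 26 tested genes of the Nodal and BMP pathways 13 rose and 10 fell (median 0.42). Nodal, the TGF-beta family ligand that patterns the epiblast, read 342 and 306 in the WT and 959 and 903 in the KO libraries (log2 difference 1.52 ± 0.10 SE, adjusted p = 5.11e-05). Lefty1, a secreted inhibitor induced by Nodal, read 64.4 and 72.3 in the WT and 785 and 793 in the KO libraries (log2 difference 3.51 ± 0.12 SE, adjusted p = 2.87e-06), and Lefty2 read 143 and 119 in the WT and 554 and 664 in the KO libraries (log2 difference 2.21 ± 0.14 SE, adjusted p = 4.39e-05). The ligand and both inhibitors were higher in both KO libraries. Inhbb, an activin subunit, rose by 2.14. Nog, the BMP antagonist noggin, read 998 and 724 in the WT and 20.5 and 22.1 in the KO libraries (log2 difference -5.26 ± 0.18 SE, adjusted p = 3.25e-06), and the activin antagonist Fst fell by 2.88. Chosen after their values were seen, the ligands Bmp2 and Bmp6 fell by 3.04 and 3.47, Bmp4 and Bmp7 rose by 0.83 and 1.30, and the BMP targets Id1 and Id2 fell by 1.31 and 2.08. Chosen likewise, Id3, another target, and the pathway inhibitors Smad6 and Bambi rose by 0.75, 1.35 and 1.59, so BMP target genes showed no single direction.

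Hedgehog signalling had 2 targets among the largest rises. A list of its genes was put together after Gli1 and Ptch1 had been seen there, so its counts describe the pathway and carry no weight as a test. Of 17 tested genes 8 rose, 2 fell and 7 did not pass (median 0.43). Ihh, the ligand Indian hedgehog made by visceral endoderm, read 139 and 86.1 in the WT and 2.83 and 2.55 in the KO libraries (log2 difference -4.91 ± 0.31 SE, adjusted p = 4.21e-05). Ptch1, the receptor that is also a target of the pathway, read 282 and 250.5 in the WT and 1737 and 1684 in the KO libraries (log2 difference 2.68 ± 0.10 SE, adjusted p = 4.80e-06). Gli1, the transcriptional effector and target, read 126 and 104 in the WT and 1297 and 1178 in the KO libraries (log2 difference 3.42 ± 0.12 SE, adjusted p = 4.65e-06). Ihh was therefore lowest in the libraries in which both targets were highest. Dhh, the ligand desert hedgehog, read 16.1 and 14.6 in the WT and 26.8 and 20.4 in the KO libraries and did not pass. Hhip, a decoy receptor and target, read 20.7 and 20.7 in the WT and 149.7 and 181 in the KO libraries, and Gli2, another effector, rose by 1.43. Smo, the signal transducer, did not pass. In ESCs, Ptch1 differed between genotypes by 0.17 and Hhip by 3.11.

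Retinoic acid genes included a gene almost silenced in KO EBs. Of 15 tested 8 fell and 4 rose (median -0.59). Cyp26a1, the enzyme that breaks down retinoic acid and is induced by it, read 663 and 545 in the WT and 2.83 and 1.70 in the KO libraries (log2 difference -7.55 ± 0.24 SE, adjusted p = 2.42e-06). Rdh10, which makes retinaldehyde from retinol, fell by 0.94, and the plasma carrier Rbp4, given above, is in this list too. The receptors Rarg and Rxra rose by 1.53 and 0.68. Stra8, a retinoic acid target needed for meiosis, rose by 2.31. These enzymes and carrier thus fell while these nuclear receptors rose.

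The Wnt list was split. Of 18 tested targets and inhibitors 7 rose and 6 fell (median 0.27). Dkk1, a secreted inhibitor of Wnt receptors, read 78.9 and 68.9 in the WT and 1.41 and 0 in the KO libraries, a WT to KO ratio with a 95% counting interval of 26.3 to 800.4. Wnt11, a ligand, fell by 2.76, and Tcf7, a DNA-binding partner of beta-catenin, by 1.10. The feedback inhibitors Axin2 and Notum rose by 0.89 and 1.36, and Sfrp1, a secreted inhibitor, by 1.54. Feedback genes of the ERK pathway showed 6 rises and 4 falls among 16. Spred1 and Spry4, both inhibitors of RAS to ERK signalling, rose by 0.98 and 1.09, while Ier3 and Phlda1 fell by 2.05 and 1.76.

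Most immediate early genes were lower. Of 19 tested 13 fell, 1 rose and 5 did not pass (median -1.15). Ccn2, also called CTGF and a target of YAP and TEAD, read 1896 and 1679 in the WT and 123 and 119 in the KO libraries (log2 difference -3.87 ± 0.10 SE, adjusted p = 1.77e-06). Btg2, an antiproliferative gene, read 1158 and 1091 in the WT and 335 and 301 in the KO libraries (log2 difference -1.82 ± 0.10 SE, adjusted p = 2.26e-05), and Klf6 and Ccn1 fell by 1.41 and 1.60. Klf10 was the exception and rose by 0.94. Jund did not pass (log2 difference 0.51). A list of 12 YAP and TEAD genes, put together after these values were seen, held 7 that fell and 2 that rose, with Ankrd1 at 116 and 133 in the WT and 2.83 and 0.849 in the KO libraries and Amotl2 at 3714 and 3454 in the WT and 1247 and 1144 in the KO libraries. The target Ajuba rose, with 1629.6 and 1359 in the WT and 3855 and 3236 in the KO libraries. The factors had log2 differences of -0.30 for Yap1, -0.31 for Wwtr1 (TAZ), -0.50 for Tead1 and 0.50 for Tead2, the other gene that rose, whose test did not pass without WT library B (0.39, adjusted p = 0.0524) or KO library A (0.38, adjusted p = 0.0599).

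Imprinted genes, which are read from a single parental copy, were mostly lower. Of 29 tested 18 fell, 7 rose and 4 did not pass (median -1.45). H19, a noncoding RNA abundant in yolk sac, read 10245 and 9218 in the WT and 304 and 237 in the KO libraries (log2 difference -5.17 ± 0.13 SE, adjusted p = 1.61e-06). Peg3, a zinc finger gene, read 4301 and 4619 in the WT and 117 and 133 in the KO libraries (log2 difference -5.14 ± 0.10 SE, adjusted p = 4.17e-07). Peg10, derived from a retrotransposon and needed for the placenta, read 2609.6 and 2724 in the WT and 59.3 and 79.8 in the KO libraries (log2 difference -5.26 ± 0.15 SE, adjusted p = 1.87e-06). No KO value of these 3 genes reached 5% of a WT value. Rian, a noncoding RNA of the Dlk1-Dio3 region, fell by 3.72. Grb10, an adaptor that restrains growth receptors, read 242 and 244 in the WT and 945 and 997 in the KO libraries (log2 difference 1.99 ± 0.09 SE, adjusted p = 1.18e-05), and Phlda2, a placental growth regulator, rose by 2.22. Igf2r, the receptor that removes IGF2, rose by 0.55. Some of these genes also differed between genotypes in ESCs, where the median KO effect of the list was -0.63. The ESC effects of H19, Peg3, Peg10, Rian, Grb10, Phlda2 and Igf2r had sizes of 0.66, 3.66, 0.29, 2.46, 1.68, 0.83 and 0.66. The KO effect differed between EBs and ESCs for 22 of 27 genes.

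**Figure D3:**
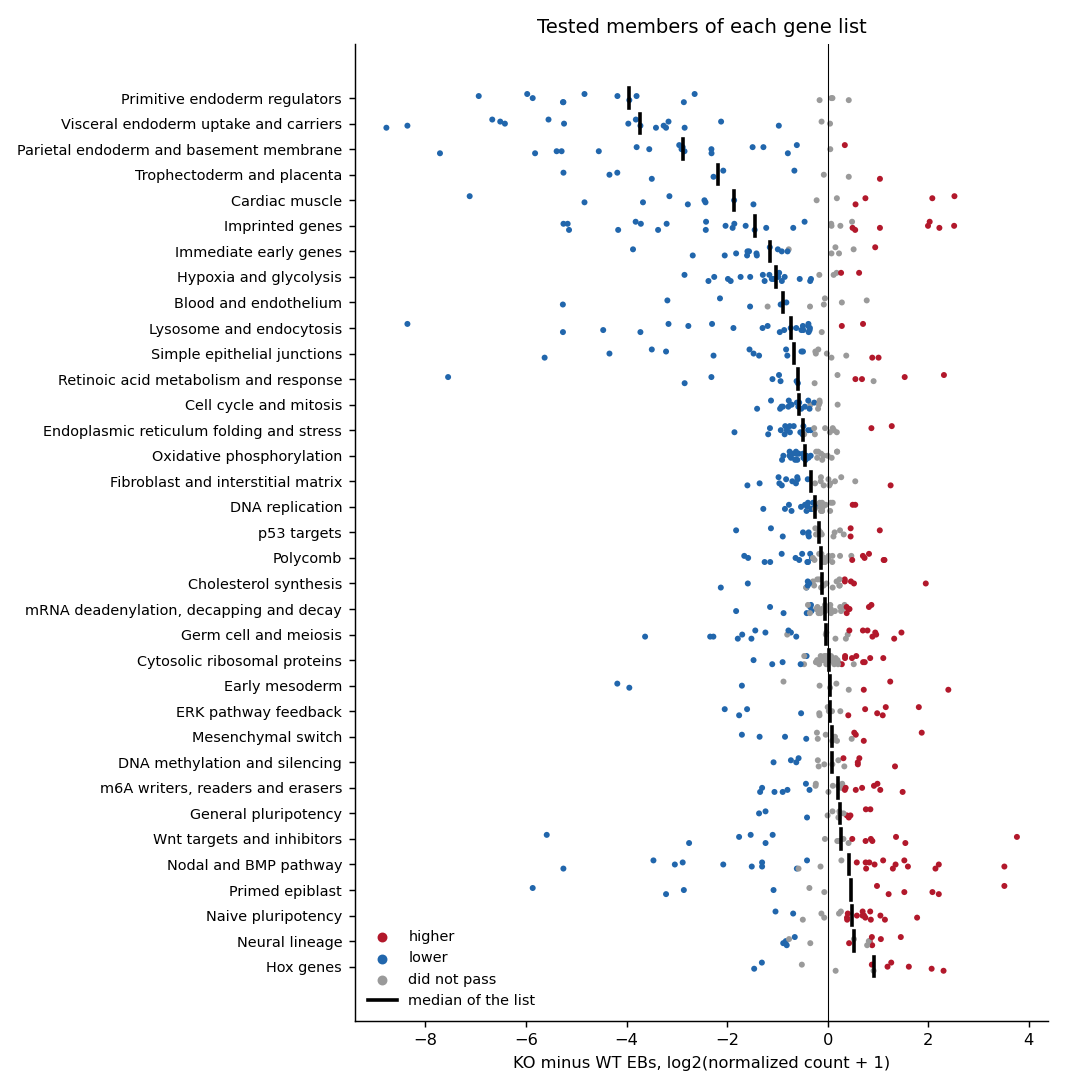
Tested members of each gene list, with the log2 difference of KO minus WT EBs on the horizontal axis, 1 point per gene coloured by its call and a bar at the list's median. The 3 endoderm lists have the lowest medians (-2.88 to -3.95), and the Hox list, with 11 tested genes of low level, has the highest (0.91).

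Metabolic and secretory genes were mostly lower. Of 24 genes of hypoxia and glycolysis 19 fell, 2 rose and 3 did not pass (median -1.03). Slc2a1, the glucose transporter GLUT1, read 5819 and 5117 in the WT and 1542 and 1328 in the KO libraries (log2 difference -1.93 ± 0.11 SE, adjusted p = 2.68e-05), and its relative Slc2a3 fell by 0.56. Pkm and Aldoa, enzymes of glycolysis, fell by 0.97 and 1.11. Pdk1, which diverts pyruvate from the mitochondria, rose by 0.62, and Vegfa did not pass. Of 30 oxidative phosphorylation genes 20 fell and none rose, by small amounts (median -0.46), with Atp5b, a subunit of ATP synthase, lower by 0.48. Most genes of both lists thus fell.

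Of 25 lysosome and endocytosis genes 22 fell, 2 rose and 1 did not pass (median -0.74), a list that also holds Cubn, Lrp2 and Dab2. Ctsl, a lysosomal cathepsin, read 7068 and 7918 in the WT and 1975 and 2104 in the KO libraries (log2 difference -1.88 ± 0.09 SE, adjusted p = 1.58e-05), and Psap and Lamp1 fell by 0.74 and 0.49. Tfeb, a transcription factor that turns on lysosome genes, rose by 0.70, and Ctsd did not pass. Of 25 endoplasmic reticulum genes 15 fell and 2 rose (median -0.48). P4hb, a protein disulfide isomerase, fell by 1.85, and the chaperones Canx and Hsp90b1 by 1.15 and 0.81. The rises were in Chac1 and Trib3, by 1.27 and 0.87. Chosen after their values were seen, the stress-induced genes Edem1, Creld2, Herpud1 and Xbp1 fell by 1.18, 0.86, 0.55 and 0.48, and Atf4, Ddit3 and Hspa5 (BiP) did not pass. Of 24 cholesterol synthesis genes 20.8% were higher and 25% lower, close to the 22.8% and 26.4% of all genes. Insig1, which holds back sterol synthesis, fell by 2.13. The endoderm lists above fell in the same libraries as these secretory and metabolic lists, and their part in these differences was not tested.

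Genes of cell division were moderately lower. Of 23 genes of the cell cycle and mitosis 17 fell and none rose (median -0.57). Cdc20, the activator of the anaphase-promoting complex, fell by 1.40, and Top2a, a DNA topoisomerase, read 8268 and 9961 in the WT and 4851 and 5733 in the KO libraries (log2 difference -0.78 ± 0.12 SE, adjusted p = 0.00211). Mki67, which encodes the proliferation antigen Ki-67, read 1692 and 1997 in the WT and 1922 and 2310.2 in the KO libraries and did not pass (log2 difference 0.20). Of 30 DNA replication genes 14 fell and 2 rose (median -0.25). Fen1, a flap endonuclease, rose by 0.55, and Rpa1, a subunit of the factor that coats single-stranded DNA, fell by 0.72. Of 19 tested p53 targets 7 fell and 3 rose. Ccng1, cyclin G1, fell by 1.13, while Gdf15, a stress-induced cytokine, rose by 1.04. The medians of both division lists were within 1 of 0 on the log2 scale, against -2.88 to -3.95 for the endoderm lists.

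The lists of chromatin and RNA machinery had medians near 0, with genes called in both directions. In the DNA methylation list 5 of 15 rose (33.3%, against 22.8% of all genes) and 4 fell (26.7%, against 26.4%), with a median of 0.09. Tet1 and Tet2, which oxidise methylcytosine, were higher by 0.63 and 1.34. Of 31 Polycomb genes 6 rose (19.4%) and 12 fell (38.7%), with a median of -0.12. Jarid2, a cofactor of Polycomb repressive complex 2, rose by 1.11, and Suz12, a core subunit of it on chromosome 11, fell by 0.92. Cytosolic ribosomal protein genes centred on 0, with 9 of 43 higher, 5 lower and a median of 0.02. Of 34 genes of mRNA deadenylation, decapping and decay 6 rose (17.6%), 7 fell (20.6%) and 21 did not pass (median -0.06). Of all genes 22.8% rose and 26.4% fell. Dcp2, the decapping enzyme, rose by 0.87, Ddx6, a helicase that acts with it, fell by 0.88, and Cnot1, the scaffold of the deadenylase complex, did not pass.

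The largest rises were fewer. Casq2, the calcium store protein of the cardiac sarcoplasmic reticulum, read 9.96 and 9.47 in the WT and 399 and 425 in the KO libraries (log2 difference 5.27 ± 0.16 SE, adjusted p = 2.09e-06). Gjb1, a gap junction protein, read 15.3 and 9.47 in the WT and 305 and 236 in the KO libraries (log2 difference 4.36 ± 0.26 SE, adjusted p = 3.12e-05). Cadps2, a regulator of vesicle release, rose by 4.55, and Mid1, a ubiquitin ligase of microtubules, by 5.45. These genes had been low in both WT libraries. Cadps2 and Mid1 were also higher in KO ESCs, by 5.22 and 4.14, while Casq2 and Gjb1 differed there by 1.03 and -2.52. Mid1 and Gjb1 lie on the X chromosome. Among more abundant transcripts, Ano9, a member of the anoctamin family, read 168 and 191 in the WT and 1868 and 2048 in the KO libraries (log2 difference 3.44 ± 0.11 SE, adjusted p = 2.16e-06). Kif26a, an atypical kinesin, and Grasp rose by 2.59 and 2.68. Hist1h2al, annotated as a processed pseudogene, read 119.5 and 42.2 in the WT and 1511 and 1013 in the KO libraries, but genes on the opposite strand overlap 32.2% of its exonic bases and its test did not pass without KO library A (adjusted p = 0.178) or KO library B (adjusted p = 0.173). Rpsa, Rpl10l and the ribosomal protein pseudogenes Rps13-ps1, Rpsa-ps11 and Rpsa-ps2 also rose, by 2.76, 2.97, 6.66, 5.53 and 4.98, and are uncertain because they can share reads with near-identical copies. Across all 747 tested processed pseudogenes 65 rose and 213 fell.

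Chromosomes differed in how their genes moved. On chromosome 11, 677 of 1383 tested genes fell (49.0%) and 131 rose (9.47%), with a median of -0.44 in EBs and -0.32 in ESCs. Without chromosome 11, 3530 of 14673 genes rose (24.1%) and 3566 fell (24.3%), with a median of 0.02. On the X chromosome the median was -0.18. Of 8 tested Y-linked genes 6 rose (median 2.70 in EBs and 1.89 in ESCs). Kdm5d, a Y-linked histone demethylase, read 6.13 and 12.9 in the WT and 248 and 288 in the KO libraries (log2 difference 4.75 ± 0.32 SE, adjusted p = 5.05e-05). Ddx3y and Eif2s3y, chosen after their values were seen, read 104 and 138 in the WT and 572 and 707 in the KO libraries and 58.2 and 67.1 in the WT and 495 and 581 in the KO libraries. Both genotypes had Y-linked reads, with much lower levels in the WT libraries, and whether the lines differ in the share of cells that carry a Y chromosome or in the dose of chromosome 11 was not tested. Of the genes named above, chromosome 11 holds Igf2bp1, Alkbh5, Sparc, P4ha2, Stat3, Nog and Tcf7, which fell. It also holds P4hb, Canx, Xbp1, Top2a, Rpa1, Ccng1 and Suz12, which fell too. Hoxb9, Axin2, Notum and Grb10 lie there and rose, and Pecam1 lies there and did not pass. Leaving out chromosome 11 changed the medians of the 3 endoderm lists to -3.87, -2.85 and -3.73.

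**Figure D4:**
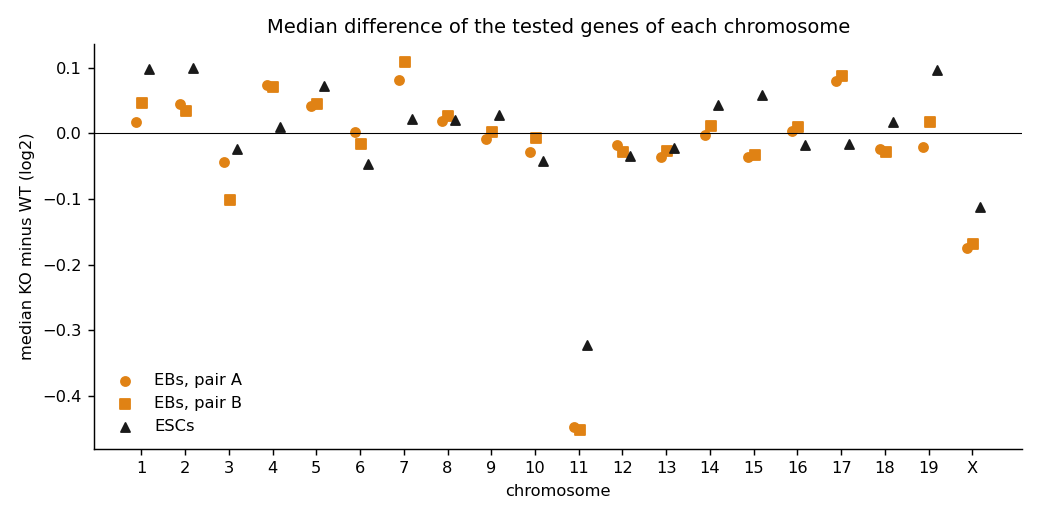
Median log2 difference of KO minus WT for the tested genes of each chromosome, in EB pair A (KO A minus WT A, circles), EB pair B (squares) and ESC libraries A and B together (triangles). Chromosome 11 is below the other chromosomes in both EB pairs and in ESCs (-0.45, -0.45 and -0.32), and the Y chromosome, with 8 tested genes, is left out.

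Transcript structure was examined because m6A is known to lie in long internal exons and near stop codons, most often in GGACT-like sequences. Genes were placed in 5 equal bins by the longest internal exon of their annotated transcript. In the top bin, with an internal exon of at least 454 bases, 33.9% of genes rose and 19.07% fell (median 0.17). In the other 4 bins 16.6% to 23.6% rose and 28.3% to 34.7% fell. The same was seen within classes of transcript length. In the class of shortest transcripts 35.0% of genes with such an exon rose, against 16.7% of the others, and in the class of longest transcripts 35.4% rose, against 23.7%. Bins by the count of GGACT per kb of transcript differed less, with 20.1%, 23.2%, 21.9%, 26.6% and 25.5% of genes higher from the lowest to the highest of 5 bins. These are descriptions across genes, which share libraries and are not replicates, and no m6A sites were measured here.

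**Figure D5:**
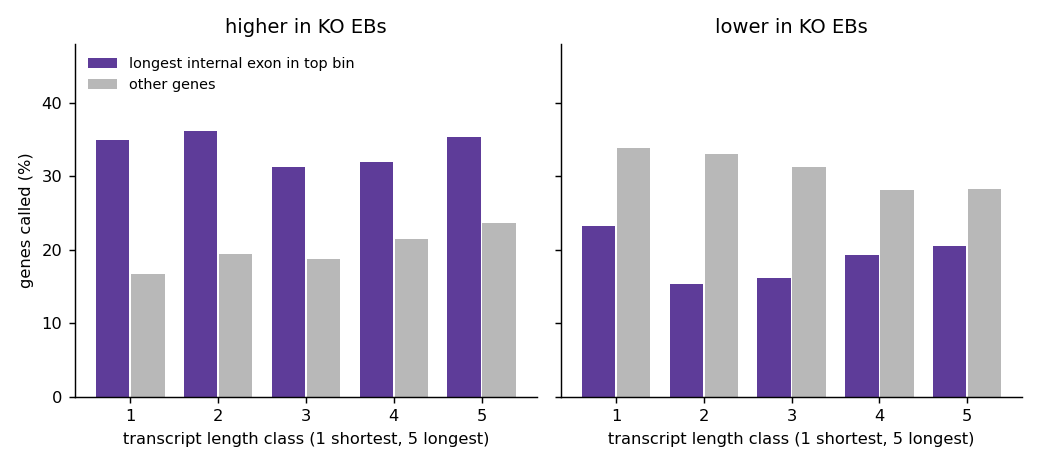
Percentage of tested genes called higher (left) or lower (right) in KO EBs in 5 classes of transcript length, for genes whose longest internal exon is in the top of 5 bins (purple) and for other genes (grey). In each class the purple bars exceed the grey bars on the left (35.0% against 16.7% in the shortest class) and fall short of them on the right.

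The KO effect in EBs was often not that in ESCs. Across 15622 genes in both fits the effects had a Pearson r of 0.385, a description across genes that share their libraries. A test of the difference of effects, EBs minus ESCs in 8 libraries, passed for 5731 of 15896 genes (36.1%). Among 1400 genes lower by 1 or more in EBs, 877 were more negative in EBs than in ESCs by that test, and among 1328 genes higher by 1 or more, 557 were more positive. The difference was passed by 13 of 15 primitive endoderm genes, 15 of 19 basement membrane genes and 11 of 18 visceral endoderm genes. Lama1 differed between genotypes by 0.19 in ESCs, where it read 1517 and 1578 in WT and 1726 and 1795 in KO (difference of effects -7.90, adjusted p = 1.55e-09). Col4a1 differed by -0.71 in ESCs (difference of effects -5.11, adjusted p = 2.07e-08). By contrast, 3 of 23 cell cycle genes and 3 of 30 oxidative phosphorylation genes passed, with ESC medians of -0.52 and -0.55. Mettl3 fell by 1.58 in ESCs, and its difference of effects did not pass (adjusted p = 0.22).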

How the data were processed

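Poly(A) RNA of EBs and ESCs was sequenced after a TruSeq RNA v2 preparation, which does not keep the strand, per the labels' protocols. Per the submitters' processing notes, the tools were HTSeq 0.6.0 and DESeq, TopHat2 2.0.10 with Bowtie, and CASAVA 1.8.2, and the build was mm10. The deposited values are a normalized signal, in which each library's reads per gene were scaled by the authors with a DESeq size factor. Division by the smallest value above 0 of a library gave whole reads, within 0.01, for 100% of values. The 5 rows that name no gene were left out. Depth is given in the report. Symbols, positions and exons come from the GENCODE annotation of GRCm38, and promoters from RefSeq (GRCm38.p6).

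Genes that averaged at least 10 in the 4 EB libraries were tested with limma 3.58.1 (R 4.3.3), with trended, robust variances on log2(normalized count + 1) and Benjamini-Hochberg adjustment over all tested genes, two-sided, at 0.05. Fold changes are on that scale, which understates low genes. A permutation test of 2 against 2 libraries cannot give a p under 0.333. The difference of KO effects used ESC libraries A and B as well. Recovered reads were also tested with edgeR 4.0.16 and DESeq2 1.42.0. A simulation gave every gene the same assumed spread between libraries (dispersion 0.01) and changed 200 of 16056 genes, none of low level. Log2 changes of 1 and 2 were recovered at 97% and 100%, with 9 false calls. The spread was not taken from these libraries, so these rates check the code and do not carry over to the data.

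Members, lists and alternatives were chosen with earlier results of these data known, and the Hedgehog and YAP lists after these values were seen. Named genes were Mettl3, the largest changes per direction with separated libraries (10 among genes averaging at least 1000 in either group, 8 at 100), and for each list at most 4 called genes per direction and its most abundant gene not called. Any endoderm or pluripotency list member could be named. Some genes that this rule names are not reported here.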

Additional observations from a re-analysis of the deposited data

Results flagged for a closer look

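The KO effect differed between EBs and ESCs, by a test of the difference itself, for 5731 genes. Among the genes named by rule, 18 had effects of 1 or more on the log2 scale in opposite directions in EBs and ESCs and passed that test, 13 of them lower and 5 higher in KO EBs. They were singled out for this sign change, and their values are given without explanation.

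Of the endoderm genes, the EB effect minus the ESC effect was -8.18 for Sox17, -8.12 for Foxa2, -6.00 for Gata4, -6.34 for Dab2 and -5.43 for Apoa1. In ESCs these genes were low, and higher in KO. Dab2, for example, read 28.6 and 33.6 in WT and 60.9 and 72.7 in KO ESCs, against 889 and 994 in WT and 24.0 and 22.9 in KO EBs. The keratins Krt8 and Krt18 had differences of -6.51 and -4.70. Krt8 read 66.5 and 76.3 in WT and 313 and 335 in KO ESCs, so KO EBs (203 and 196) and KO ESCs were on opposite sides of their WT counterparts.

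Hkdc1 had the difference furthest from 0 among the 18, -9.81, with 2.15 and 4.58 in WT and 12.0 and 16.3 in KO ESCs. Nog stood at -6.75, the endothelial gene Esam at -4.86, Snai1 at -4.11, the blood factor Runx1 at -3.00 and Btg2 at -2.87.

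In the other direction, Gjb1 had a difference of 6.88, Stra8 of 4.46, Lefty2 of 4.38, Tcf15 of 4.05 and Olig2 of 2.54. Lefty2 read 48.6 and 55.0 in WT and 11.4 and 9.99 in KO ESCs, lower in KO, against a rise in EBs. Gjb1 read 5.72 and 9.16 in WT and 1.09 and 0 in KO ESCs.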

How the results depend on the processing

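With all 10 libraries in the fit, the ESC replicate C libraries among them, 340 genes passed instead of 7904 (83 higher, 257 lower, and 2255 at an unadjusted p under 0.05), and the difference of effects passed for 75 genes instead of 5731. Of 322 named genes 225 lost their call in that fit. With ESC libraries A and B but not C in the fit, 8289 genes passed (3840 higher, 4449 lower). The C libraries held 3026837 (WT) and 3075007 (KO) gene reads, against 8824396 to 15426894 in ESC libraries A and B. The fit of all 10 libraries shares 1 estimate of spread with replicate C, and the cause of its lower count was not tested. Samples of the same letter had deviations that correlated with r = 0.370, over 2 pairs only, so the letters are not taken to pair the samples. With the letter as a replicate block 11108 genes passed (5279 higher, 5829 lower) and the difference of effects 9131, and among named genes the call of Foxa2 was lost. Leaving out 1 library gave 6588 to 6907 genes (2929 to 3247 higher, 3536 to 3660 lower), and 4596 to 4880 for the difference of effects, with the lone library assumed to vary like the others. Other settings with the EB libraries gave 6069 (DESeq2) to 8216 (no filter on low values). No named gene that passed changed direction in any alternative run. Among named genes 55 lost their call without at least 1 library, Hspg2, Pou5f1 and Hist1h2al included, and 48 under at least 1 other alternative with the EB libraries or 8 libraries. Another scaling moved the median of all genes by at most 0.033. Depth limits genes under 3 reads, for which bounds or counting intervals are given.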

Other observations

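Among tested genes by annotated type, lincRNAs had a median log2 difference of 0.16, with 85 of 336 higher and 49 lower in KO EBs, and antisense genes had a median of 0.07, with 114 of 616 higher and 102 lower. Without strand, reads of an antisense gene and its partner cannot be told apart. Malat1, a nuclear noncoding RNA, read 70757 and 74475 in the WT and 101340 and 103760 in the KO libraries, and Neat1, the scaffold RNA of paraspeckles, read 2139 and 2408 in the WT and 4846 and 5323 in the KO libraries. Both were higher in both KO libraries than in both WT libraries, by 0.50 and 1.16 on the log2 scale (adjusted p = 0.00337 and 0.000138 in limma), and both were chosen after their values were seen.

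Translation factors were among the most abundant protein-coding transcripts. Eef1a1, which brings aminoacyl-tRNA to the ribosome, read 27317 and 28907 in the WT and 45786 and 46773 in the KO libraries, a rise of 0.72 (adjusted p = 0.000606), and Eef2, the translocation factor, read 34222 and 31258 in the WT and 47044 and 42820 in the KO libraries, a rise of 0.46 (adjusted p = 0.00735). Rack1, a scaffold protein of the small ribosomal subunit on chromosome 11, read 27345 and 26886 in the WT and 18239 and 18085 in the KO libraries and fell by 0.58.

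Genes with few exons rose more often. Of 2863 tested genes with 1 to 4 exons, 29.2% were higher and 21.3% lower in KO EBs, while in the other 4 bins of exon number 20.6% to 22.9% were higher and 27.8% to 30.8% lower. These are descriptions across genes of the same 4 libraries.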
